A study of Mus musculus with 20 samples.

Results

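The genotype effect in salivary gland was set against the genotype effect in isolated colonic macrophages, gene by gene, as the interaction contrast of a single linear model. For each gene the contrast is the difference between mice labelled Irgm1-/- and wild type mice in salivary gland minus the same difference in macrophages, on the log2 scale, where 1 unit is a 2-fold change. To enter, a probe had to lie well above background in 4 or more of the 8 salivary gland samples and in 3 or more of the 6 macrophage samples. This held for 12952 of 39429 probes, which stand for 10943 of 30342 genes and transcripts, and 14 of the 20 samples of the study were used. A difference was called at an adjusted p under 0.05 (limma with Benjamini-Hochberg adjustment over the 10943 genes).

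Single-colour microarrays were hybridised with RNA from mice labelled C57BL/6 and housed in specific pathogen-free rooms. Whole salivary gland came from 4 female Irgm1-/- mice aged 9 weeks and 4 female wild type mice, of which 2 were 6 weeks and 2 were 7 weeks old. Macrophages isolated from the colon came from 3 Irgm1-/- mice (2 males and 1 female) and 3 female wild type mice, aged 8, 6 and 6 weeks in both genotypes. No mouse is labelled as treated, and the sources used here give neither the allele nor the way the macrophages were isolated. Age ran together with genotype in salivary gland and sex ran together with genotype in macrophages, and neither can be told apart from it in full.

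Irgm1 is an immunity-related GTPase, 1 of a family of membrane-binding proteins that interferons induce and that act against microbes inside cells. Type I and type II interferons signal through JAK kinases and STAT transcription factors. A complex that includes STAT2 and IRF9 binds an element in target promoters known as the interferon-stimulated response element, and the products range from enzymes that act on viral RNA to the proteins that load peptides on MHC class I.

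The salivary gland difference exceeded the macrophage difference for 564 genes (5.15% of those tested) and fell below it for 79 (0.722%), 5.88% in either direction. With each array scaled to its median in place of its 75th percentile, the split was 319 against 6. With the mouse numbers of the macrophages as a block, in which same-numbered mice pair, it was 924 against 190, with all 564 and all 79 among them. At an unadjusted p under 0.05 the contrast was passed by 1821 genes. The 564 genes were split into blocks by which tissue's own difference passed the threshold, and a difference that was not called need not be near 0. In 131 of them the salivary gland difference alone was called, as higher. In 307 the macrophage difference alone was called, as lower. In 116 neither tissue's own difference was called. A further 6 were higher in both tissues and more so in salivary gland, and 4 were higher in salivary gland and lower in macrophages. The sizes of these blocks rest on 1 spread shared by both tissues. With 1 spread per tissue, the genes called in salivary gland went from 240 to 444 and those called in macrophages from 572 to 265. In the opposite direction, 50 of the 79 genes were higher in macrophages alone, 7 were lower in salivary gland alone, 1 was called in both tissues with opposite signs, and 21 were called in neither tissue. Over all genes tested the median contrast was -0.01. Taken by tissue, 2.02% of the genes tested were higher and 0.174% lower in salivary gland, and 1.3% were higher and 3.93% lower in macrophages. Of the 564 genes, 532 had a salivary gland difference above 0 and 485 a macrophage difference below 0, and 18 did not lie well above background in any wild type gland. At the edge of the rule on background, the median contrast was 0.22 for the 800 probes that met it on exactly 4 salivary gland arrays and 0.34 for the 762 that missed it by 1 array. On the macrophage side of the rule the median was 0.18 for the 145 probes at the minimum and -0.31 for the 223 that missed it by 1 array.

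**Figure D1:**
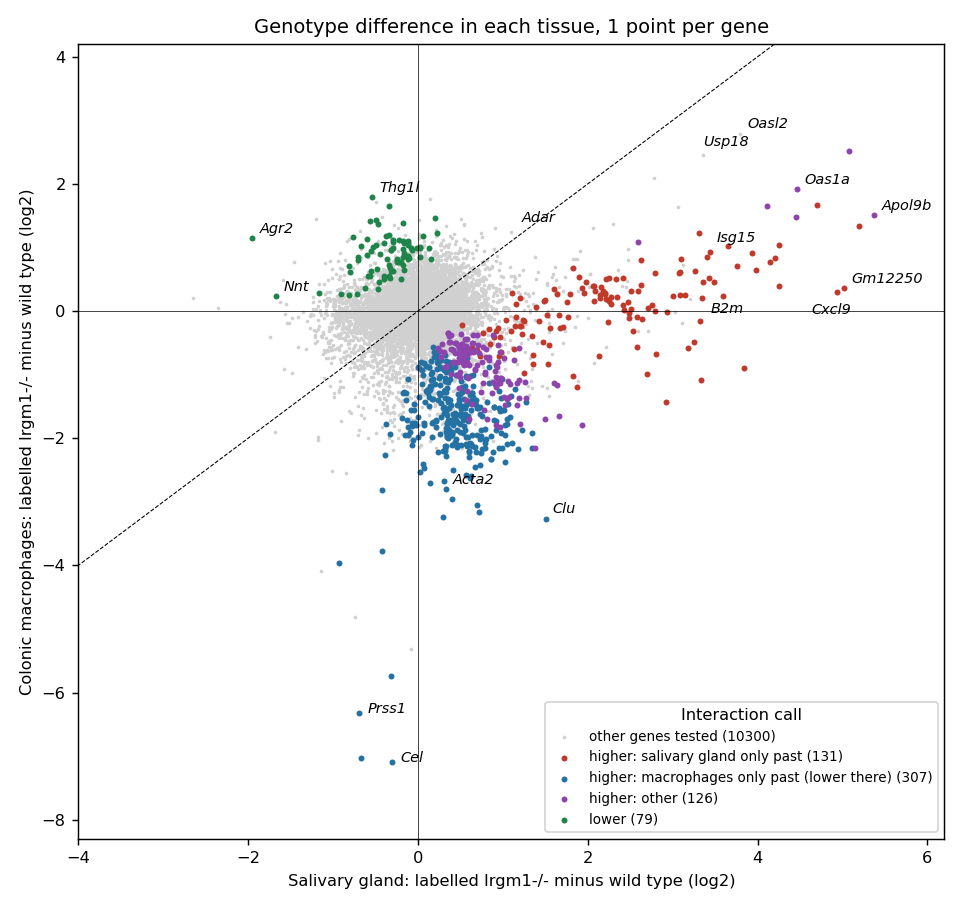
Each point is 1 of 10943 genes, with its salivary gland genotype difference (horizontal, log2) and its macrophage genotype difference (vertical, log2); colours give the interaction call and the dashed line marks equal differences. The 131 genes called in salivary gland alone spread to the right, and the 307 genes called in macrophages alone spread downwards. Of all 564 genes with the contrast above 0, 532 had a salivary gland difference above 0 and 485 a macrophage difference below 0.

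The 75th percentile of intensity, over the 8746 probes well above background on all 14 arrays, lay between 1543 and 11039 in salivary gland and between 5248 and 10402 in macrophages. The share of probes well above background ran from 25.2% to 48.7% in salivary gland and from 57.0% to 74.2% in macrophages. The brightest salivary gland array, Irgm1-/- replicate 1, had a median correlation of 0.939 with the rest of its group, and the other arrays of the fit had at least 0.962. Each tissue was scanned on a day of its own, on 2 slides that each held both genotypes. In wild type mice, 9 of 16 resident macrophage markers were higher on the macrophage arrays than on the salivary gland arrays (median difference 0.54). In Irgm1-/- mice 3 of the 16 were (median -1.69). For fibroblast and stroma markers it was 15 of 15 in wild type (median 2.65) and 11 of 15 in Irgm1-/- mice (median 1.26). All 22 colonic epithelium markers on the array were detected in the macrophage samples. Genes that mark other cell types were thus measured in the samples labelled as macrophages, and the word macrophages in this report follows that label. In bulk samples such as these, fewer cells of a type and less RNA per cell cannot be told apart.

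The targeted gene did not fall in the mutant samples: Irgm1 had more signal with the Irgm1-/- label than without it. Its scaled log2 signal in the gland was 0.34, -0.14, -0.89 and -0.28 in the labelled Irgm1-/- mice and -2.93, -2.98, -2.76 and -2.82 in wild type mice. In macrophages it was -2.12, -1.52 and -1.81 against -3.20, -2.09 and -2.54. The salivary gland groups stood apart. The macrophage groups overlapped, with each Irgm1-/- mouse above the wild type mouse of the same number. The salivary gland difference was 2.63 (SE 0.26) and the macrophage difference 0.80 (SE 0.30), a contrast of 1.84 (SE 0.40, limma adjusted p = 0.0184). The gene's other probe gave 1.17 (limma adjusted p = 0.210, fitted over all 12952 probes) and did not pass. The call also ended without macrophage Irgm1-/- replicate 1 or wild type replicate 2, and with the single female Irgm1-/- macrophage sample. Which part of Irgm1 was deleted is not stated in these sources, so a probe that lies outside that part would be no check of the label. Below, every direction follows the label.

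Many genes induced by type I interferon rose further in salivary gland than in macrophages. Of 32 members tested, 20 had the larger rise in salivary gland and 1 went the other way, beside 5.15% and 0.722% of all genes. The same shares of all genes stand beside the count of every list below. Members that met the rule through the Irgm1-/- gland alone, such as Ifit3b and Irf7, had to differ, and of the 17 members well above background on all 14 arrays 6 passed. The median difference of the 32 members was 3.12 in salivary gland and 0.88 in macrophages, and their median contrast was 2.20. In salivary gland 29 of the 32 rose. Of the other 3, named after their values were seen, Oas1b (0.18) and Sp100 (0.10) did not pass in the gland, and Ifi27 fell by 0.72 there and had a contrast of -0.98 (limma adjusted p = 0.0341). In macrophages 31 of the 32 differences were above 0 and 10 passed the test. Within the 2 slides the list's median was 3.48 and 2.75 in salivary gland and 0.94 and 0.84 in macrophages. Without any single mouse the count lay between 16 and 24, and with the single female Irgm1-/- macrophage sample against 3 wild type samples it was 11, with a median contrast of 2.16.

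Apol9b, a member of the apolipoprotein L family that interferon induces, had the largest contrast of this list. Its log2 signal in salivary gland was 2.70, 2.40, 2.18 and 2.02 in Irgm1-/- mice and -3.41, -3.24, -2.72 and -2.83 in wild type mice. In macrophages it was -0.92, -0.59 and -0.90 against -2.80, -2.18 and -1.94. The genotypes stood apart in both tissues, and the rise was 5.37 in salivary gland and 1.51 in macrophages (contrast 3.87, SE 0.34, limma adjusted p = 0.000237). Its neighbour in sequence, Apol9a, gave a contrast of 2.98, and signal may be shared between copies as alike as these.

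Oas1a makes the oligoadenylate that activates RNase L. Its signal was 1.59, 1.03, 0.80 and 0.64 in Irgm1-/- salivary gland and -3.32, -3.46, -3.42 and -3.60 in wild type. In macrophages it was 1.5, 1.58 and 0.54 against -0.16, -0.70 and -1.27. With Irgm1-/- the levels of the 2 tissues met, while the wild type levels lay apart, and the rises of 4.46 and 1.91 gave a contrast of 2.55 (SE 0.43, limma adjusted p = 0.00562). A second probe gave 2.37. Oas1f and Oasl1, of the same family, had contrasts of 3.37 each.

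Isg15, a ubiquitin-like protein that is joined to other proteins after interferon, had signals of 3.32, 2.75, 1.89 and 2.40 in Irgm1-/- salivary gland and -1.06, -0.94, -0.70 and -0.69 in wild type. In macrophages the signals were -2.20, -1.54 and -1.74 against -3.49, -2.13 and -2.67, where the groups overlapped but each Irgm1-/- mouse lay above its same-numbered wild type mouse (contrast 2.50, SE 0.48, limma adjusted p = 0.00966). Ifit3b, which belongs to a family that binds viral RNA, did not lie well above background in any wild type gland. It was at least 14.2-fold higher in Irgm1-/- gland, and its contrast was at least 2.49. Irf7, the transcription factor that amplifies interferon genes, was at least 11.7-fold higher in the gland and rose by 1.65 in macrophages, a contrast of at least 1.89.

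A smaller set rose in both tissues with no difference between them that passed. Usp18, the protease that removes Isg15 and restrains the interferon receptor, measured 1.0, 0.77, 0.44 and 0.63 in Irgm1-/- salivary gland and -2.54, -2.80, -2.75 and -2.52 in wild type. In macrophages it measured -1.51, -0.89 and -1.63 against -5.01, -2.63 and -3.76. The genotypes stood apart in both tissues. The rises were 3.36 and 2.46, and the contrast of 0.90 had a 95% interval of -0.32 to 2.12 (limma adjusted p = 0.503). Oasl2 rose by 3.79 and 2.79 (contrast 1.0, limma adjusted p = 0.414), Rtp4 by 3.06 and 1.63 (limma adjusted p = 0.0697, and 0.0178 with the macrophage mouse numbers as a block), and Dhx58, a regulator of RNA sensing, by 2.78 and 2.09 (limma adjusted p = 0.447). Adar, which edits double-stranded RNA, rose by 1.1 and 1.25. Its contrast of -0.15 changed sign under several alternatives. Irf9, a subunit of the complex that binds the response element, rose by 1.38 and 0.85. These intervals leave room for unequal rises. The 13 genes called as higher in both tissues were these, the 6 with a called contrast (Apol9a, Apol9b, Irf7, Lgals3bp, Oas1a and Oas2) and 1 unnamed transcript.

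**Figure D2:**
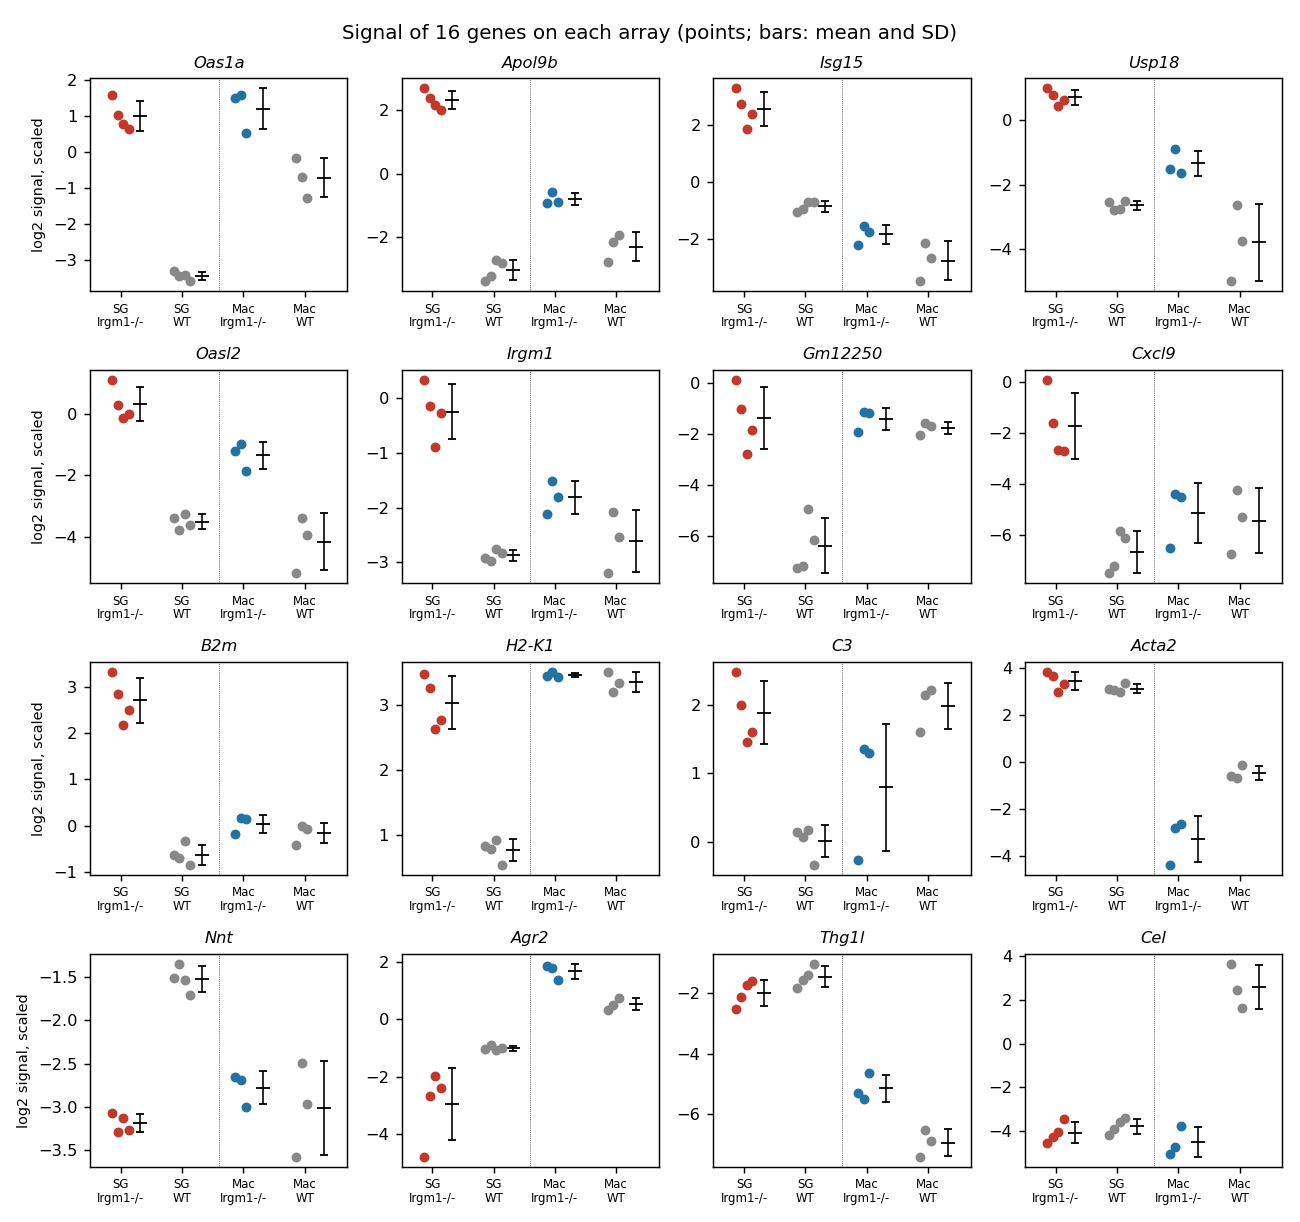
Each panel shows the scaled log2 signal of 1 gene on the 8 salivary gland (SG) and 6 macrophage (Mac) arrays, 1 point per mouse, with the mean and SD beside each group. Usp18 and Oasl2 stand apart by genotype in both tissues, H2-K1 and B2m do so in salivary gland, and Cel does so in macrophages.

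Among the immunity-related GTPases and the guanylate-binding proteins, which coat the vacuoles of parasites and bacteria, 7 of 11 members tested had the larger rise in salivary gland and 0 had the smaller (limma). With the 14 arrays all required to lie well above background, 4 members were left and 3 of them passed. The median difference was 3.12 in salivary gland, where 8 of 11 rose, and 0.15 in macrophages, where 0 passed. The largest contrast was that of Gm12250, the GTPase also called Irgb10. Its signal was 0.12, -1.01, -2.77 and -1.83 in Irgm1-/- salivary gland and -7.28, -7.17, -4.96 and -6.15 in wild type, where no array put it well above background. In macrophages it was -1.91, -1.15 and -1.18 against -2.05, -1.59 and -1.70, and the groups overlapped. Wild type macrophages therefore already lay within the range of Irgm1-/- salivary gland. The gland's rise was at least 9.45-fold and the contrast at least 2.88 (fitted 4.65), with salivary gland differences of 6.78 and 3.26 within the 2 slides. It met the rule on background through the Irgm1-/- gland alone, so it had to differ and its p is not given. Tgtp2 (4.42), Gbp2 (3.73), Igtp (2.62) and Irgm2 (2.59) passed as well, and Gbp3 was at least 9.43-fold higher in the gland. Without macrophage Irgm1-/- replicate 1 or wild type replicate 2 the count of 7 fell to 3, without gland wild type replicate 2 or macrophage wild type replicate 3 it was 4, and with the female Irgm1-/- macrophage sample alone it was 0 with a median contrast of 2.42.

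The MHC class I pathway followed. Of 21 members, 13 had the larger rise in salivary gland and 0 the smaller. The medians were 1.75 in salivary gland, where 15 rose, and 0.20 in macrophages, where 0 passed. B2m, the light chain of class I molecules, measured 3.33, 2.84, 2.18 and 2.51 in Irgm1-/- salivary gland and -0.63, -0.70, -0.33 and -0.85 in wild type. In macrophages it measured -0.19, 0.16 and 0.14 against -0.41, 0.00 and -0.06 (contrast 3.15, SE 0.33, limma adjusted p = 0.000563). The gland's groups stood apart by more than the whole spread of the macrophage arrays. H2-K1, a classical heavy chain, was at 3.49, 3.27, 2.63 and 2.76 in Irgm1-/- gland and at 0.82, 0.78, 0.92 and 0.53 in wild type. All 6 macrophage arrays lay between 3.21 and 3.52, next to the level of the Irgm1-/- gland (contrast 2.16, SE 0.28, limma adjusted p = 0.00154). The immunoproteasome subunits Psmb8 (2.83) and Psmb9 (2.77), the peptide transporter subunit Tap1 (1.89) and H2-D1 (1.92) passed. The chaperones Calr, Canx and Pdia3, which serve class I loading but also general protein folding, had contrasts of 0.32, 0.30 and 0.14 and did not pass. Nlrc5, the transactivator of class I genes, was not well above background on wild type gland arrays, and its contrast was at least 1.15 (fitted 2.48, in a fit that lacked 1 array value). Its other probe gave -0.78. With the array median as the scale 6 of the 21 passed, with the female Irgm1-/- macrophage sample alone 8 did, and of 18 members well above background on all 14 arrays 10 did. H2 probes may share signal among the family's members.

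For the MHC class II genes, 0 of 8 passed the contrast in limma, and 8 of 8 contrasts were above 0 with a median of 1.25. H2-Ab1 had a contrast of 1.48 (SE 0.67, limma adjusted p = 0.285). The list's salivary gland median was 1.83 within slide 1 and 0.26 within slide 2.

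Chemokines that draw T cells and monocytes shifted too. Of 12 members, 7 had the larger difference in salivary gland and 0 the smaller (median contrast 2.18). Cxcl9, a ligand of the receptor Cxcr3, was at 0.08, -1.60, -2.66 and -2.71 in Irgm1-/- gland and between -7.48 and -5.81 in wild type gland, where no array put it well above background. In macrophages the 3 arrays of each genotype overlapped between -6.74 and -4.24. The gland's rise was at least 7.45-fold and the contrast at least 2.60 (fitted 4.64). Cxcl9, Cxcl10 and Ccl12 met the rule on background through the Irgm1-/- gland alone and had to differ, and of the 7 chemokines well above background on all 14 arrays 2 passed. Cxcl10, of the same receptor, rose at least 3.94-fold, and Ccl5 had a contrast of 2.77 and Ccl12 at least 2.78. With the female Irgm1-/- macrophage sample alone 0 of the 12 passed, with a median contrast of 1.68, and without wild type macrophage replicate 2 there were 3, as against 4 without replicate 3 or Irgm1-/- macrophage replicate 1. The 9 markers of T and NK cells tested had a median difference of 0.55 in the gland (0.95 and 0.19 within the 2 slides) and -0.14 in macrophages. Over the 13 members detected in the gland, 10 were higher there, with a median of 0.85. Their mean level ran from -3.04 to -2.23 in Irgm1-/- gland and from -4.33 to -3.47 in wild type, without overlap. Of 9 contrasts, 6 were above 0 and 2 were called, Gzma (2.53) and Il2rb (1.96). These lost the call in 6 and 8 of the 14 fits that left out a mouse. The contrasts of Cd8b1 (-0.55), Cd28 (-0.52) and Cd4 (-0.16) were below 0. Of the 4 markers well above background on all 14 arrays, 0 passed. The part of such cells in the chemokine result was not tested.

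Sensors of nucleic acids were divided. Of 14 members, 6 had the larger rise in the gland and 0 the smaller. The DNA-binding proteins Ifi211 (3.68) and Ifi204 (3.47), the Z-form sensor Zbp1 (3.03), and the nucleases Samhd1 (1.95) and Trex1 (1.73) passed, as did the RNA sensor Ifih1 (1.15). Without macrophage Irgm1-/- replicate 1 or wild type replicate 2 the count was 3, and with the female Irgm1-/- macrophage sample alone it was 1. Of these genes, Samhd1 lost the call in 6 of the 14 fits that left out a mouse and Ifi211 in 4. The endosomal receptors Tlr7 and Tlr9 had contrasts of 0.38 and -0.42, and the adaptor Mavs -0.33. Of 18 genes of interferon receptors and signalling, 4 passed. They were the feedback inhibitor Socs1, whose contrast was at least 1.78, and the transcription factors Irf7, Irf1 (1.74) and Irf8 (1.34). Irf8 lost the call in 9 of the 14 fits. Socs1 and Irf7 met the rule on background through the Irgm1-/- gland alone and had to differ. Of the 12 members well above background on all 14 arrays, 1 passed. Without wild type macrophage replicate 1 the count was 8 and without any other single mouse 3 to 5, while the array median gave 2 and the female Irgm1-/- macrophage sample alone 1. The kinases Jak1 (0.40) and Jak2 (0.70), Stat3 (0.97) and the receptor subunits Ifngr1 (0.93) and Ifngr2 (-0.05) did not pass. Stat2 rose in the gland by 1.61 and gave a contrast of 0.92 (limma adjusted p = 0.263). Ifit1 and Iigp1 did not meet the rule on background and were not tested.

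On the wild type arrays, 21 of the 32 type I interferon genes had more signal in macrophages than in salivary gland on the same probe (median 0.60). On the Irgm1-/- arrays, 6 of the 32 did (median -1.03). Over all genes tested, the same medians were -0.01 and -0.13. For MHC class I the medians were 0.47 in wild type and -0.90 in Irgm1-/- samples. These levels rest on the scaling between tissues, which the genotype differences do not share in the same way.

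Promoter sequences were searched for the core of the interferon-stimulated response element. The following lines give the 100 bases before the start in the gene's direction, from the RefSeq promoter table of build GRCm38.p6, for genes that rose in the gland, with matches in capitals and overlapping matches run together. The motif searched, on either strand, is the run GAAA, any 2 bases and GAAA again. Every gene printed holds a match, so the lines are examples and not typical of the genes that rose. Irf7, Oasl1, Oas1f, H2-K1, Psmb8 and Tap1 also rose in the gland and held no match in the longer stretch searched below. Apol9b lies at chr15:77728972-77729071 (plus strand), Gm12250 at chr11:58183743-58183842 (plus), Gbp3 at chr3:142559944-142560043 (plus), Oas1a at chr5:120907526-120907625 (minus), Isg15 at chr4:156200819-156200918 (minus) and Irgm1 at chr11:48871421-48871520 (minus).
Apol9b: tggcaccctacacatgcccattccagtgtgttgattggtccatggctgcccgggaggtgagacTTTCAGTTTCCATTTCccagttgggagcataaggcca
Gm12250: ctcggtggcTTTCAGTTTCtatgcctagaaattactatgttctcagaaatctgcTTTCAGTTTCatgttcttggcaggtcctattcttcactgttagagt
Gbp3: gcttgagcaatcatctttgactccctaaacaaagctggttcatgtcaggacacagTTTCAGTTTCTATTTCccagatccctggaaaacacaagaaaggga
Oas1a: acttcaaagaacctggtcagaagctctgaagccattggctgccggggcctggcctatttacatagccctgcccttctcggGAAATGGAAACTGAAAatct
Isg15: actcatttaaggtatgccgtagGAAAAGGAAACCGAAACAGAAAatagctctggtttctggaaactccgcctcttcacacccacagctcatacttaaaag
Irgm1: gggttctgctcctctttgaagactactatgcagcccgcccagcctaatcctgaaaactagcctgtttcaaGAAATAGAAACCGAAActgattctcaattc

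The motif was searched in the 250 bases before the start, and 936 of 27025 promoters (3.46%) held it, as did 3.05% of the 7144 genes tested that have a promoter in the table. Of the 131 genes called in salivary gland alone, 86 had a promoter and 23 of these (26.7%) held a match. Of the 307 genes called in macrophages alone, 10 of 223 promoters (4.48%) held one. Among the 116 genes with the contrast called above 0 but called in neither tissue, 1 of 84 (1.19%) did. Among the genes with the contrast called below 0 it was 1 of 55 (1.82%). Among the 13 genes higher in both tissues, 3 of 8 promoters held it. The sets were chosen by their measured values and hold gene families with like promoters, so the shares are a description with no test, and a match is not a binding site.

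Complement genes had contrasts made up in different ways. Of 13 complement genes, 8 passed and 0 went the other way. Their median was 1.54 in the gland and -1.19 in macrophages. C3, the central component of the cascade, was at 2.48, 1.99, 1.46 and 1.61 in Irgm1-/- gland and 0.14, 0.06, 0.17 and -0.34 in wild type. Its macrophage values were -0.27, 1.36 and 1.29 against 1.59, 2.14 and 2.21, where the genotypes stood apart in the opposite order (contrast 3.06, SE 0.51, limma adjusted p = 0.00562). Serping1, the inhibitor of C1, had a contrast of 3.26 and fell in macrophages by 1.92. C4b had a contrast of 3.15. Cfb, a protease of the alternative pathway, rose by 3.40 in the gland and differed by 0.85 in macrophages, so its macrophage difference made the contrast of 2.55 smaller. Without wild type macrophage replicate 2 or replicate 3 the count was 5, and with the female Irgm1-/- macrophage sample alone it was 4.

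Resident macrophage markers had few calls, and 0 passed in either tissue taken alone. All 16 contrasts were above 0 with a median of 1.92, from 0.84 in the gland and -1.14 in macrophages, and 3 passed, C1qa (3.30), Fcer1g (2.81) and Tyrobp (2.37). Leaving out 1 mouse at a time gave 0 to 12 calls, and the block on macrophage mouse numbers gave 12. Csf1r (1.70), Cd68 (0.99) and Adgre1 (0.68), of the same list, did not pass. The list's mean level over its 21 detected members ran from -3.57 to -2.19 on Irgm1-/- macrophage arrays and from -2.94 to -1.15 on wild type ones, so these groups overlapped, although each of the 3 Irgm1-/- mice lay below the wild type mouse of the same number. Over 19 members in the gland it ran from -1.54 to -0.86 and from -2.36 to -2.13, so the gland's groups did not overlap. The part of macrophage number in the complement and interferon results of the gland was not tested. Of 19 lysosome genes, 6 passed, beside 5.15% of all genes tested, with medians of 0.35 and -0.42. Among them were the proteases Ctsl (1.36), Ctsa (1.33) and Ctsb (1.24). The count was 2 without gland Irgm1-/- replicate 2, gland wild type replicate 4 or macrophage wild type replicate 2, and 3 without gland wild type replicate 2, macrophage Irgm1-/- replicate 1 or macrophage wild type replicate 3. It was 0 with the array median and 0 with the female Irgm1-/- macrophage sample alone.

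The block of 307 genes called in macrophages alone, out of 10943 tested, included genes of connective tissue, muscle and pancreas, but most of its genes were in none of these lists. It counted 20 members of the lists for fibroblasts, smooth muscle, endothelium and pancreatic acinar cells and 1 member of the interferon lists, while the block of 131 genes counted 1 and 48. Those 4 marker lists had 15, 8, 8 and 5 members among all genes tested. Of 15 fibroblast and stroma markers, 12 passed and 0 went the other way. Their median was 0.32 in the gland, where 0 passed, and -1.78 in macrophages, where 12 fell. Col5a1, a collagen chain, was at -2.19, 0.07 and -0.99 in Irgm1-/- macrophages and at 0.68, 1.32 and 0.83 in wild type. In the gland it was at -2.78, -3.35, -3.81 and -3.18 against -3.42, -3.96, -4.04 and -4.09 and the groups overlapped (contrast 2.58, SE 0.58, limma adjusted p = 0.0212). The growth factor receptors Pdgfrb (3.23) and Pdgfra (2.44), periostin (Postn, 2.50) and fibronectin (Fn1, 2.28) passed as well. Without wild type macrophage replicate 2 the count of 12 was 1, without replicate 3 it was 3, and without any single salivary gland mouse other than Irgm1-/- replicate 3 it was 4 to 7, while the median contrast stayed between 1.5 and 2.66 over the mice left out.

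Of 8 smooth muscle markers 5 passed, and 3 did without wild type macrophage replicate 3, with the array median or with the female Irgm1-/- macrophage sample alone. Acta2, smooth muscle actin, lay at -4.40, -2.82 and -2.63 in Irgm1-/- macrophages and at -0.60, -0.69 and -0.14 in wild type. In the gland, where myoepithelial cells hold it, it lay between 2.98 and 3.85 on all 8 arrays (contrast 3.13, SE 0.50, limma adjusted p = 0.00492). Myh11, the smooth muscle myosin, had a contrast of 3.76. The endothelial marker Egfl7 had 2.87 with a fall of 2.07 in macrophages. Ly6c1, which endothelium and monocytes share, went with the other block. It rose by 2.51 in the gland and differed by 0.04 in macrophages (contrast 2.47, limma adjusted p = 0.00106).

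The largest contrasts among the named genes were those of digestive enzymes of the pancreas, and they came from the macrophage side. Cel, the bile salt-stimulated lipase, was at 3.67, 2.47 and 1.63 in wild type macrophages and at -5.06, -4.71 and -3.75 in Irgm1-/- macrophages. In the gland its 8 arrays lay between -4.55 and -3.42 and overlapped (contrast 6.78, SE 0.62, limma adjusted p = 0.000237). Ctrb1 (6.36) and Ctrl (5.42), both chymotrypsin-like, and trypsinogen Prss1 (5.63) behaved alike. Prss1 was not well above background on any Irgm1-/- macrophage array and was at least 26.2-fold lower there. Of 16 pancreatic acinar markers, 16 were detected on macrophage arrays and 5 met the rule in both tissues. The list's mean level was 0.64 to 3.03 on wild type macrophage arrays and -5.87 to -4.96 on Irgm1-/- ones. These genes mark a tissue that neither sample is labelled to hold, and the source of their signal was not tested. The same arrays had stroma levels of 0.43 to 1.19 against -1.97 to -0.08 and smooth muscle levels of -1.52 to -0.90 against -3.41 to -2.24, also without overlap. Colonic epithelium levels overlapped, at -0.25 to 0.80 and 0.06 to 0.57. The part of these cell types in the 307 genes was not tested.

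**Figure D3:**
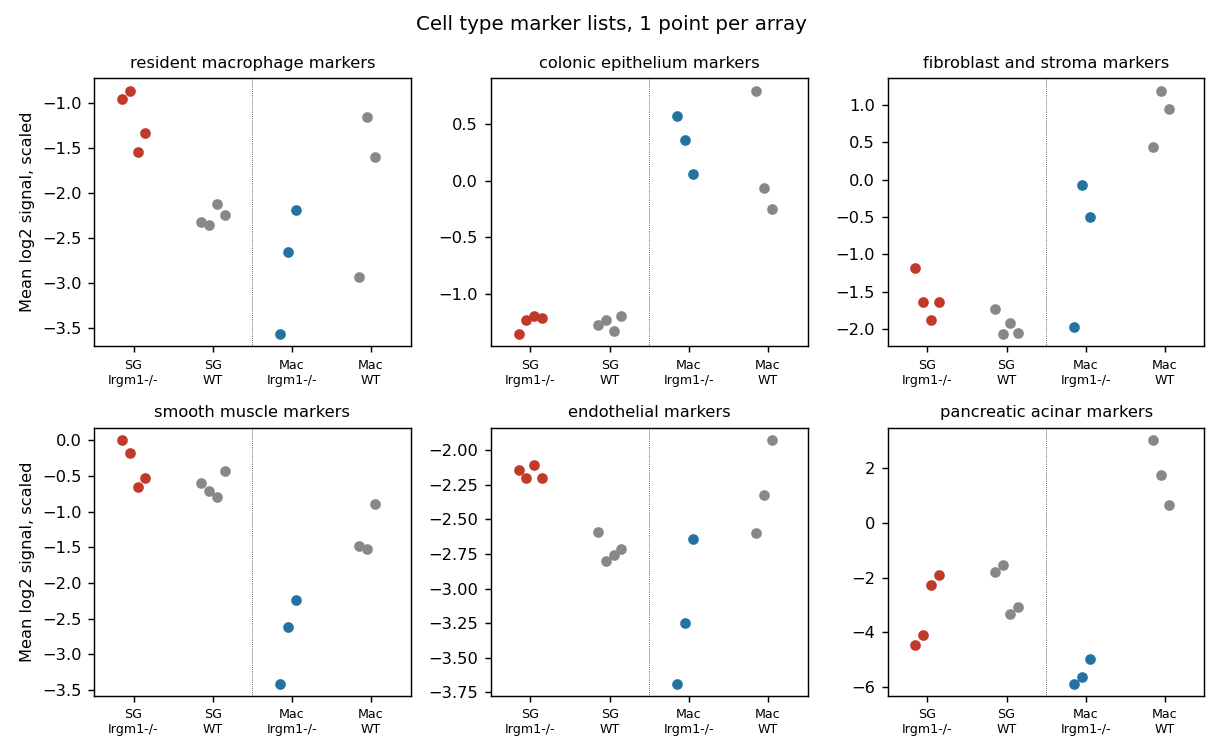
Each point is the mean scaled log2 signal of a marker list on 1 array, over the members detected in that tissue, so heights compare within a tissue and not between tissues. On the macrophage arrays the genotypes do not overlap for fibroblast and stroma, smooth muscle and pancreatic acinar markers (-5.87 to -4.96 against 0.64 to 3.03 for the last), and they overlap for macrophage and colonic epithelium markers; for macrophage markers each Irgm1-/- array lies below the wild type array of the same mouse number.

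Fewer genes had the contrast below 0. Agr2, a disulfide isomerase of mucus-secreting cells, had the lowest. It was at -4.78, -2.67, -1.96 and -2.41 in Irgm1-/- gland and at -1.05, -0.89, -1.09 and -1.0 in wild type. Its macrophage values were 1.86, 1.77 and 1.35 against 0.32, 0.48 and 0.73. The genotypes stood apart in opposite orders, and the contrast was -3.10 (SE 0.68, limma adjusted p = 0.0181), although its salivary gland difference was -2.76 within slide 1 and -1.14 within slide 2. Slc12a2, the sodium, potassium and chloride cotransporter that drives fluid secretion, gave -1.93. It was between 0.51 and 0.84 in Irgm1-/- gland and between 0.84 and 1.28 in wild type, and it rose in macrophages by 1.43. It was the only called gene of 18 salivary acinar markers, whose median contrast was -0.45. Other genes of secretory epithelium with a contrast below 0 were Bcas1 (-2.00), the claudin Cldn14 (-1.93), the channel subunit Lrrc26 (-1.73) and the endocrine regulator Neurog3 (-1.52), of which Cldn14 and Neurog3 lost the call in 6 and 8 of the fits that left out a mouse.

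Of 13 cholesterol synthesis genes, 3 passed below 0 and 0 above. In macrophages 13 of 13 differences were above 0 and 6 rose, with a median of 0.75, while the median in the gland was 0.05. Sqle, an early oxygenation enzyme of sterol synthesis, was at -0.04, -0.35 and -0.57 in Irgm1-/- macrophages and at -1.07, -1.40 and -1.86 in wild type. The gland's groups overlapped between -3.85 and -2.99 (contrast -1.35, SE 0.32, limma adjusted p = 0.0249). Idi1 (-1.26) and Fdps (-1.19) passed as well. Leaving out 1 mouse at a time, Sqle lost the call in 6 of 14 fits, Idi1 in 8 and Fdps in 13. With the array median or the female Irgm1-/- macrophage sample alone 0 of the 13 passed, leaving out 1 mouse gave 0 to 6, and with the block on macrophage mouse numbers 7 did. Of 35 oxidative phosphorylation genes 0 passed in limma. Their median contrast was -0.30, lay between -0.49 and -0.18 without 1 mouse and was -0.07 with the female Irgm1-/- macrophage sample alone.

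Genes that bear on the mice's background were also among the lowest. Nnt, the mitochondrial transhydrogenase that the C57BL/6J substrain lacks in functional form, was at -3.08, -3.29, -3.13 and -3.27 in Irgm1-/- gland and at -1.5, -1.34, -1.53 and -1.70 in wild type. Its macrophage values were -2.65, -2.69 and -3.0 against -3.58, -2.49 and -2.97, and the groups overlapped. The fall of 1.67 in the gland gave a contrast of -1.91 (SE 0.30, limma adjusted p = 0.00469). Thg1l, a tRNA-modifying enzyme gene on the same chromosome as Irgm1, did not lie well above background in any wild type macrophage sample and rose there at least 2.06-fold. It did not pass in the gland (-0.54), and its fitted contrast was -2.33. Pttg1, also on that chromosome, fell in the gland by 1.74 and gave -1.33 (limma adjusted p = 0.124). The labels give the background only as C57BL/6, and the part of substrain or of flanking chromosome in other results was not tested.

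A few genes were called in opposite directions by the 2 tissues. Tmem176a, a membrane protein of antigen-presenting cells, was at 1.48, 1.26, 0.47 and 0.17 in Irgm1-/- gland against -0.18, -0.50, -0.26 and -0.50. Its macrophage values were -0.17, 0.64 and 0.64 against 2.12, 1.96 and 2.37 (contrast 2.99, SE 0.42, limma adjusted p = 0.00308). Tmem140 (2.74), Plac9a (2.42) and the microtubule protein Map4 (2.01) were likewise higher in the gland and lower in macrophages. Rap1gap, which turns off the small GTPase Rap1, was lower in the gland by 0.70 and higher in macrophages by 0.80 (contrast -1.5, limma adjusted p = 0.00569).

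Autophagy, in which Irgm1 is known to act, gave no call in the contrast. Of 24 autophagy and mitophagy genes 0 passed the contrast in limma. Their median was 0.16, and Sqstm1, the cargo receptor p62, gave 1.16 (limma adjusted p = 0.139). Taken by tissue, 0 of the 24 were called in the gland and 2 were lower in macrophages, Wipi1 (-0.89) and Gabarapl1 (-0.74). Of 21 genes of the unfolded protein response only Ddit3 passed (1.31, limma adjusted p = 0.00709), a share near the 5.15% of all genes tested. Of 10 cell cycle genes 0 passed. The interferons themselves were near background, with 2 of 9 tested, Ifnab (-0.44) and Ifnl3 (-0.33), and neither passed.

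**Figure D4:**
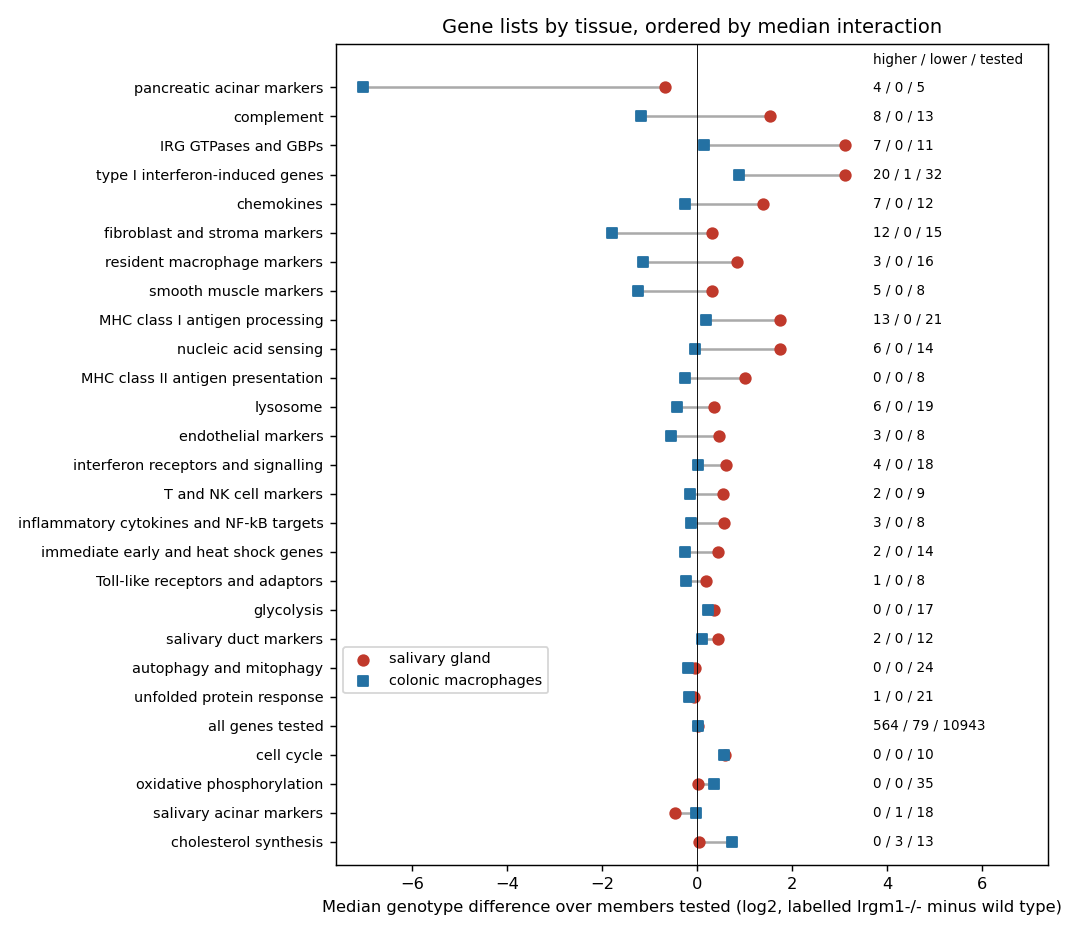
Medians of the genotype difference (log2) over the tested members of each list, in salivary gland (circles) and macrophages (squares), ordered by median interaction, with the counts of interaction calls above 0, below 0 and tested at the right. Interferon lists separate to the right through salivary gland (3.12 for type I interferon genes), and stroma, smooth muscle and pancreatic lists separate to the left through macrophages.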

How the data were processed

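RNA of each mouse was labelled with Cy5 (5 ug) and hybridised to a single-colour Agilent array (design 026655, annotation mm9), per the file headers and the labels' protocols. The deposited intensity of each spot is the processed signal, background-subtracted within the array by Agilent Feature Extraction 11.5.1.1, per the file headers, and flags, deposited as other columns, mark spots well above background, saturated (0 spots) or outlying (0.434% of 43020 spots per array, left out). The authors' series table of the same arrays was used only as an alternative; the sources used here do not state how it was normalized. No count depth exists for arrays, and the number of arrays limits the precision.

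Spots were averaged per probe on the log2 scale, and each array's 75th percentile over the 8746 probes well above background on all 14 arrays was subtracted. The probe with the highest mean stood for its gene. RefSeq accessions named 27508 of 39429 probes (GRCm38.p6 table), and 11921 kept the file's name. A fit of 4 group means (limma 3.58.1, R 4.3.3) with Benjamini-Hochberg adjustment gave each contrast, with 95% intervals. It lacked a value on some array for 102 genes. Mice are the replicates, so p-values measure the spread between mice. Where no array of a group put a gene well above background, the gene got a lower bound against the dimmest signals well above background.

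The macrophages with one replicate number had the same age and slide, and their deviations correlated (0.50, 0.30 and 0.73), so the numbers pair them. On simulated arrays of 10841 genes, 30%, 74%, 96% and 94% of genes with an interaction of 1, 2, 3 and 4 log2 units were called, with 8 false calls. The simulated noise was normal and independent between arrays, with 1 spread per gene over the 4 groups. It held no pairing, slide effect, odd array or spread that differs by tissue, so these figures may not hold for the real arrays. Members and lists were chosen with earlier results of these data known. The named genes were the 15 highest and 15 lowest contrasts that passed, up to 4 that passed per list (or 2 as values), a fixed set around Irgm1 and interferon, the 8 largest of those called alike in both tissues without an interaction, and those called in opposite directions. Other list members appear as values chosen after they were seen. Alternatives were the scaling, normalization, background, filter, probe choice, samples, spread, slide, replicate block, sex and each mouse left out.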

Additional observations from a re-analysis of the deposited data

Results flagged for a closer look

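Of 123 named genes tested, 97 passed the interaction test between salivary gland and macrophages (limma, adjusted p under 0.05). Many were named because they passed, so this count follows from the choice and is not a result. Each value in brackets is the log2 contrast, positive where the salivary gland difference was the higher of the pair, and the account above gives the levels behind the genes that matter most.

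Among genes that type I interferon induces, the contrast was above 0 for Apol9a (2.98), Apol9b (3.87), Ifit3 (3.03), Ifit3b (3.87), Isg15 (2.50), Oas1a (2.55), Oas1f (3.37), Oasl1 (3.37), Bst2 (2.84), Irf7 (2.45), Ifi204 (3.47), Ifi211 (3.68), Zbp1 (3.03) and Samhd1 (1.95). The interferon-inducible GTPases and guanylate-binding proteins were Irgm1 (1.84), Irgm2 (2.59), Igtp (2.62), Tgtp2 (4.42), Gm12250 (4.65), Gbp2 (3.73) and Gbp3 (3.22). Genes of class I presentation were B2m (3.15), H2-K1 (2.16), Psmb8 (2.83), Psmb9 (2.77) and Nlrc5 (2.48). Regulators of cytokine and receptor signalling were Socs1 (3.76), Irf1 (1.74), Irf8 (1.34), Il18bp (2.33), Nfkb2 (1.17), Relb (1.18) and Unc93b1 (1.22). The chemokines were Ccl5 (2.77), Ccl12 (3.49), Cxcl9 (4.64) and Cxcl10 (3.35).

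Genes of complement, phagocytes and lysosomes were C1qa (3.30), C3 (3.06), C4b (3.15), Serping1 (3.26), Clu (4.77), Fcer1g (2.81), Tyrobp (2.37), Itgax (3.72), Plac8 (2.90), Ly6c1 (2.47), Ly6g (2.64), Ctsa (1.33), Ctsb (1.24), Ctsl (1.36) and Ctsz (1.13). The lymphocyte genes were Gzma (2.53) and Il2rb (1.96). Genes of connective tissue, muscle and vessels were Col5a1 (2.58), Postn (2.50), Pdgfra (2.44), Pdgfrb (3.23), Acta2 (3.13), Cnn1 (1.69), Myh11 (3.76), Myl9 (2.49), Pdlim3 (3.88), Egfl7 (2.87) and Emcn (2.10). The pancreatic enzymes were Cel (6.78), Ctrb1 (6.36), Ctrc (3.35), Ctrl (5.42) and Prss1 (5.63). The stress genes were Ddit3 (1.31), Hspa1a (1.56) and Ier3 (1.82). The remaining genes above 0, of mixed roles, were Map4 (2.01), Pla1a (4.35), Plac9a (2.42), Serpina3g (4.74), Tmem140 (2.74) and Tmem176a (2.99).

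Below 0 lay the sterol synthesis genes Sqle (-1.35), Idi1 (-1.26) and Fdps (-1.19), the genes that bear on substrain and chromosome Nnt (-1.91) and Thg1l (-2.33), the secretory and transport genes Agr2 (-3.10), Slc12a2 (-1.93), Slc12a8 (-1.69), Cldn14 (-1.93), Lrrc26 (-1.73) and Bcas1 (-2.00), and Acss1 (-1.54), Hid1 (-1.49), Neurog3 (-1.52), Oit1 (-1.54), Ppp1r1b (-1.55), Rap1gap (-1.5) and Tspan13 (-1.54). For Ccl12, Cxcl9, Cxcl10, Gbp3, Gm12250, Ifit3b, Irf7, Ly6g, Nlrc5, Serpina3g and Socs1 the wild type salivary gland arrays, for Pdlim3 and Prss1 the Irgm1-/- macrophage arrays and for Thg1l the wild type macrophage arrays were not well above background. These genes met the rule on background through the other genotype of that tissue alone, so they had to differ. Their contrasts are fitted values, and the bounds are lower, for example at least 3.10 for the serine protease inhibitor Serpina3g and at least 1.08 for Ly6g.

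The criterion for a single sample far from the 3 others of its group (Dixon's test at 95%) was met in 7 of 248 groups of 4, and chance flags about 1 in 20 groups. In wild type salivary gland, replicate 3 was high for Fcer1g (0.32, with the others between 0.05 and 0.08) and for Gbp3 (-5.14 against -5.88 to -5.76), and replicate 4 was high for Ier3 (-4.57 against -4.88 to -4.84). In Irgm1-/- salivary gland, replicate 1 was high for Pdgfrb (-3.28 against -4.32 to -4.19) and Stat2 (0.38 against -0.32 to -0.20) and low for Slc12a8 (-0.47 against 0.76 to 0.94). Replicate 3 of the same group was high for the respiratory subunit gene Uqcrfs1 (-0.51 against -1.01 to -0.93). Replicate 1, with 3 of the 7, was also the array least like its group. Without it Pdgfrb (2.99, limma adjusted p = 0.034) and Slc12a8 (-1.35, limma adjusted p = 0.00919) still passed the contrast.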

How the results depend on the processing

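The difference between tissues was refitted under 17 other settings and without each of the 14 mice, and the cause of the changes below was not tested unless the setting itself gives it. Counts are given for contrasts above 0, contrasts below 0, salivary gland and macrophages, which were 564, 79, 240 and 572. With the array median as the scale they were 319, 6, 179 and 186. With no filter on dim probes (30342 genes tested) they were 197, 14, 188 and 182, and over the 7565 genes well above background on all 14 arrays they were 325, 61, 115 and 377. With all 20 arrays the last 3 counts were 128, 361 and 793, with 1 spread per tissue 52, 444 and 265, and with slide as a block 171, 500 and 776. With a replicate block on mouse number in both tissues they were 944, 258, 941 and 1096, and with the block in macrophages only 924, 190, 419 and 1079. Among named genes this latter block changed the call of Rtp4 and Slc16a3 (1.14) alone, both to a call. Same-numbered salivary gland mice share only a number and a slide: their correlations were 0.26, -0.07, -0.49 and 0.48. With the female macrophages only, where the lone Irgm1-/- sample is assumed to vary like the other groups, the counts were 167, 20, 245 and 59. Leaving out 1 mouse at a time gave 281 to 847 above 0, 28 to 217 below 0, 154 to 307 in salivary gland and 197 to 1013 in macrophages. Above 0 the count was 281, 320 and 847 without wild type macrophage replicates 2, 3 and 1, 347 without Irgm1-/- macrophage replicate 1, 333 and 329 without wild type gland replicates 2 and 4, and 344 without Irgm1-/- gland replicate 2. Below 0 it was 39 and 217 without wild type macrophage replicates 3 and 1, 28 without Irgm1-/- macrophage replicate 1, 42, 37, 48 and 43 without wild type gland replicates 1 to 4, and 52 and 37 without Irgm1-/- gland replicates 1 and 2. In the gland it was 154 without wild type replicate 2 and also without replicate 4, and in macrophages 213 without Irgm1-/- replicate 1, 1013 without wild type replicate 1 and 197 without replicate 3. The other settings (percentile over all probes or within tissue, quantile normalization, normexp background, the authors' table, the mean of a gene's probes, the intensity trend and the filter added after seeing the data) kept all 4 counts within 1.5 times. Scaling moved the median contrast of all genes by over 0.1 with the percentile over all probes (to -0.18), quantile normalization (-0.14) and the authors' table (-0.13). With no filter, which adds genes, it was -0.30. Over the named genes, 214 values of the contrast lost their call under a setting, 1811 kept direction and side of the threshold, 6 gained a call and 4 changed sign. The calls of Cxcl10 and Irgm1 ended without Irgm1-/- macrophage replicate 1 or wild type macrophage replicate 2, those of Col5a1 and Postn without the latter, and that of Pdgfrb without it or wild type replicate 3. Adar changed sign to 0.063 with normexp, 0.46 with the mean of its probes and 0.093 with the female macrophages, and spanned -0.33 to 0.021 without 1 mouse. Ifnab spanned -0.87 to 0.036 and Tpsb2 -0.53 to 0.10 without 1 mouse. Nlrc5, whose other probe replaced the first under the filter chosen after seeing the data (10 of any 14 arrays), went to -0.78 in the contrast and -0.34 in the gland. Signal over background limits the dim genes, for which bounds are given.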

Other observations

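Of the 564 genes with the larger difference in salivary gland, 457 belonged to none of the 34 gene lists. The following genes of no list were chosen after their values were seen and serve as examples with no further test. In the gland, the membrane protein Ifitm3, which blocks virus entry, rose by 2.13 and differed by -0.70 in macrophages. The surface protein Ly6a rose by 2.76 against 0.09, the class I gene H2-Q5 by 3.98 against 0.65, the inflammasome protease Casp1 by 3.08 against 0.60, the sensor Nlrp1a by 2.34 against 0.50, and Uba7, the enzyme that activates Isg15, by 2.25 against 0.53. Lcn2, an iron-scavenging protein of epithelium and neutrophils, rose by 1.82 and differed by -1.02 in macrophages. In macrophages, the growth factor Csf1 fell by 2.15, the thrombin receptor F2r by 2.38, the matrix protein Tgfbi by 2.17, the laminin chain Lamb2 by 1.90, the intermediate filament vimentin (Vim) by 1.70, the metalloproteinase inhibitor Timp3 by 1.52 and galectin 1 (Lgals1) by 1.43. None of these macrophage-side genes passed in the gland, where their differences lay between 0.48 and 1.35. The stroma and pancreatic marker levels of the macrophage arrays given above moved with the same genotype, and their part was not tested.

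Further lists gave few calls in limma, to be set beside 5.15% of all genes tested above 0 and 0.722% below 0. Of 8 inflammatory cytokines and NF-kB targets, 3 passed above 0: Il18bp, which binds interleukin 18 (2.33), and the NF-kB subunits Relb (1.18) and Nfkb2 (1.17). Of 8 Toll-like receptors and adaptors, only Unc93b1, which carries endosomal receptors, passed (1.22). Of 14 immediate early and heat shock genes, Ier3 (1.82) and Hspa1a (1.56) passed. Among 6 dendritic cell markers, Itgax (3.72), Bst2 (2.84), which interferon also induces, and Irf8 (1.34) passed. Among 4 monocyte markers Plac8 (2.90) and Ly6c1 passed, while Ace (0.60) and Chil3 (-0.12) did not. Of 3 neutrophil markers Ly6g passed, with a contrast of at least 1.08, while Csf3r (-0.18) and Elane (-0.35) did not. Ly6g met the rule on background through the Irgm1-/- gland alone and had to differ. Of 13 neutrophil markers on the array, 8 were never well above background in the gland. Of 8 endothelial markers 3 passed, Egfl7, Emcn (2.10) and Ly6c1, and of 12 salivary duct markers Acta2 and Cnn1 (1.69), both genes of contractile cells. With 0 calls, 17 glycolysis genes had a median contrast of 0.22, 6 B and plasma cell markers -0.05, 4 mast cell and eosinophil markers -0.21 and 7 colonic epithelium markers -0.27. Leaving out 1 mouse at a time gave 1 to 3 calls for the NF-kB list, 0 to 2 for Toll-like receptors, 0 to 3 for immediate early and heat shock genes and 1 to 2 for duct markers.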
